A study of Mus musculus with 2 samples.

Results

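Oncostatin M (Osm) and the genes of the IL-6 family around it were measured in single cells of mouse periodontal tissue. The set holds 10 genes of the 31053 in the count matrices, listed by symbol and chosen with earlier results of these data known. Osm, Lif, Il6 and Il11 encode ligands, Osmr, Lifr, Il6ra and Il6st encode receptor subunits, Stat3 encodes the transcription factor that the receptors activate, and Socs3 encodes a feedback inhibitor. Every gene was read in 2 single-cell libraries, each made from live cells of the gingiva and of the alveolar bone surface pooled from 5 wild-type C57BL/6 mice aged 8 weeks. The mice of 1 library carried ligature-induced periodontitis (LIP) and were taken 7 days after the ligature was placed, and those of the control library received no treatment. With 1 library per condition the spread between mice could not be measured, so no test between conditions was possible and all intervals below cover counting error only.

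Cytokines of this family signal through receptor pairs that contain gp130, the product of Il6st, which most cell types carry. The partner subunit sets which ligand is read: mouse OSM acts mainly through OSMR with gp130, LIF through LIFR with gp130, and IL-6 and IL-11 through gp130 after binding their own alpha receptors, while a soluble IL-6 receptor can deliver IL-6 to cells that lack Il6ra. The receptors activate JAK kinases and STAT3, and STAT3 induces Socs3, which shuts the signal off. In bone, OSM and IL-6 are known to act on osteoblast-lineage cells, which make the osteoclast factor RANKL.

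After filtering, 936 LIP cells and 883 control cells remained, with a median of 5595 and 10845 UMIs (unique molecular identifiers, one per captured transcript) per cell. Clustering that left out the 10 genes and their pathway gave 24 sub-clusters, of which 23 could be named from markers and 1, of 45 LIP and 28 control cells with few UMIs, could not. In the LIP and control libraries the classes held 325 and 56 neutrophil-like, 83 and 41 macrophage-like, 27 and 51 T-like, 19 and 151 B-like, 31 and 20 bone-lineage osteogenic-like, 24 and 88 fibroblast-like, 79 and 48 vascular endothelial-like, 45 and 46 mural-like, 103 and 37 Schwann-like, 123 and 259 epithelial-like and 11 and 16 mucous-like cells. The bone-lineage class was led by Ibsp, Bglap and Bglap2, the genes of mineralized matrix proteins, and the neutrophil-like class held Csf3r, Hdc, Camp and Ltf among its leading genes. The macrophage-like class was a single sub-cluster, with C1qb, Ctss, Ms4a6c, F13a1, Csf1r and Ccr2 among its leading genes. The marker lists had no separate monocyte type, so monocytes and macrophages were not told apart in it. Lymphatic endothelial-like, chondrocyte-like and erythroid-like cells were too few to compare between libraries. Of the cell barcodes, 2 occurred in both libraries, and 1 of these was kept in both. The level of a gene in a class is its summed UMI count per 1000000 UMIs of that class in that library (CPM), with an exact Poisson 95% interval.

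The genes lie on 6 chromosomes of the GRCm38 build, and 2 pairs lie close to each other. Osm (chr11:4236420-4241026) and Lif (chr11:4257557-4272514) are both on the plus strand with 16.5 kb between them. Osmr (chr15:6813577-6874969, minus strand) and Lifr (chr15:7090614-7197489, plus strand) are 216 kb apart. Socs3 lies at chr11:117966079-117970047 on the minus strand and Il6 at chr5:30013114-30019981 on the plus strand. Promoter windows of the 250 bases before the transcription start were read for 9 of the 10 genes (11 windows, RefSeq, GRCm38.p6), with none for Osm. They were searched on both strands for TTCNNNGAA, the letters that STAT proteins bind, and for TGANTCA, those that AP-1 (Fos and Jun proteins) binds. The STAT letters stood in 2306 of all 32851 windows of this length (7.02%). Among the 11 windows of the 9 genes read, they stood in 1, that of Socs3. The AP-1 letters stood in 2217 windows (6.75%) and in those of Il6, Lif and Il11 (1 of its 2 windows). Both windows below are shown because they belong to the feedback gene and the cytokine gene whose levels are followed later, with the matched letters in capitals.
Socs3, chr11:117969367-117969616, minus strand, STAT match starting 154 bases upstream: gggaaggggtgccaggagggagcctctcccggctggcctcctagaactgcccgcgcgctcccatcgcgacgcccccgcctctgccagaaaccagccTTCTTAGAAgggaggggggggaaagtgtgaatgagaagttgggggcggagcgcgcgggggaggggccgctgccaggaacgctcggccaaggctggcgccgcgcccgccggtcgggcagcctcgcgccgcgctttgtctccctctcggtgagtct
Il6, chr5:30012864-30013113, plus strand, AP-1 match starting 249 bases upstream: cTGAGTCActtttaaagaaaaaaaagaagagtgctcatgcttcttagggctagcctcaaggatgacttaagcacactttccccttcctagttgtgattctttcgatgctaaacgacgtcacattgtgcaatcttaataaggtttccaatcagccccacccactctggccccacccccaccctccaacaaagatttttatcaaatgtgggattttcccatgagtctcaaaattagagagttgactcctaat
The Socs3 window is counted from the RefSeq start. It lies upstream of the annotated protein-coding transcript, which starts at chr11:117969186, and overlaps no UTR. However, all 250 bases lie within a longer non-coding Socs3 transcript, and 77 of them are an exon of a non-coding Socs3 transcript. The Il6 window overlaps no exon or UTR of Il6. A match is a description of the letters and not evidence of binding.

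Where each gene was read differed sharply between classes, and for most genes it was alike in both libraries. Osm UMIs came almost only from myeloid cells, Osmr UMIs from endothelial, mural, osteogenic, fibroblast and epithelial cells, and the Il6ra level was highest in macrophages and, in the control library, T cells as well. Il6st was read in all compared classes but was close to 0 in neutrophils. Stat3 was read in all of them at 34.8 to 302 CPM. None of the 10 genes had a UMI in the 9 LIP and 12 control erythroid-like cells, at a median of 18116 and 18922 UMIs per cell.

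**Figure D1:**
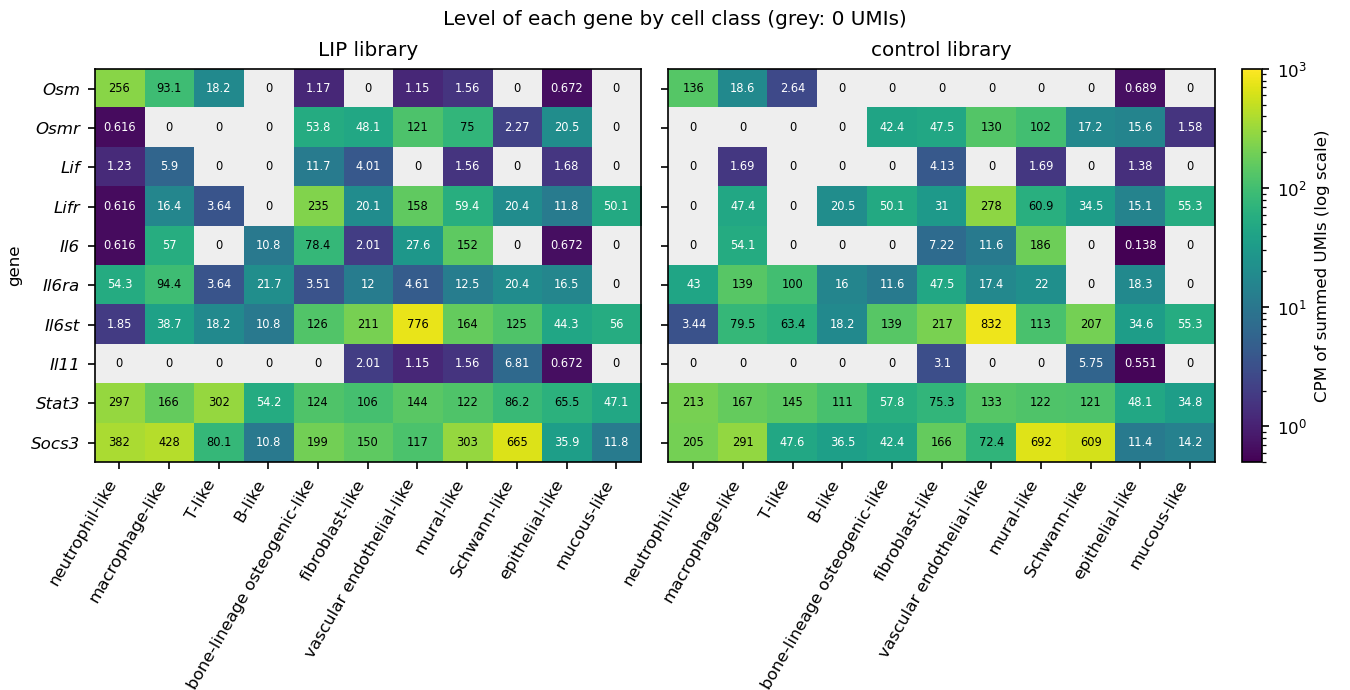
Level of each of the 10 genes (rows) in the 11 compared cell classes (columns) of the LIP library (left) and the control library (right), as CPM of summed UMIs on a log colour scale with the value printed in each box and grey for 0 UMIs. Osm stands at 256 CPM in LIP neutrophil-like and 93.1 in LIP macrophage-like cells, while Osmr is at 0 or 0.616 CPM in those classes and at 48.1 to 121 CPM in the stromal and endothelial ones.

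Between libraries, 54 pairs of a gene and a class had at least 20 UMIs over both libraries and could be compared, and 16 of them (29.6%) differed by more than 2-fold, against 14.3% of 71235 such pairs over all genes. Of these 16, 8 were higher and 8 lower in LIP. Bone-lineage osteogenic-like cells had 4 of 6 genes more than 2-fold higher in LIP (Lifr, Il6, Stat3 and Socs3), where 8.01% of all genes tested in the class were. Of these, Il6 had no interval because its control sum was 0, and 62 of its 67 LIP UMIs lay in 1 cell. Macrophage-like cells had Osm higher (background 9.94%) and Lifr and Il6st lower (5.85%), and T-like cells had Stat3 higher (10.4%) and Il6ra and Il6st lower (8.19%). B-like cells had Stat3 and Socs3 lower (11.8%), fibroblast-like cells Il6ra lower (7.51%), mural-like cells Socs3 lower (4.91%), vascular endothelial-like cells Il6 higher (8.04%) and epithelial-like cells Socs3 higher (5.96%). No gene passed 2-fold in neutrophil-like (background 23.8%), Schwann-like (13.4%) or mucous-like cells (6.73%). The B-like cells came mostly from 1 sub-cluster in control (144 of 151 cells, led by Cd79a, Igkc and Ighd) but from 2 in LIP (10 and 9 cells). For the B-like pairs and for Il6 in vascular endothelial-like cells the counting interval included no difference. With a mitochondrial limit of 5% only 39 pairs could be compared and 10 of them (25.6%) passed 2-fold, of which 9 were among the 16. Of the 7 others of the 16, 6 could not be compared at that limit and Il6st in macrophage-like cells stood at −0.99 on the log2 scale.

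**Figure D2:**
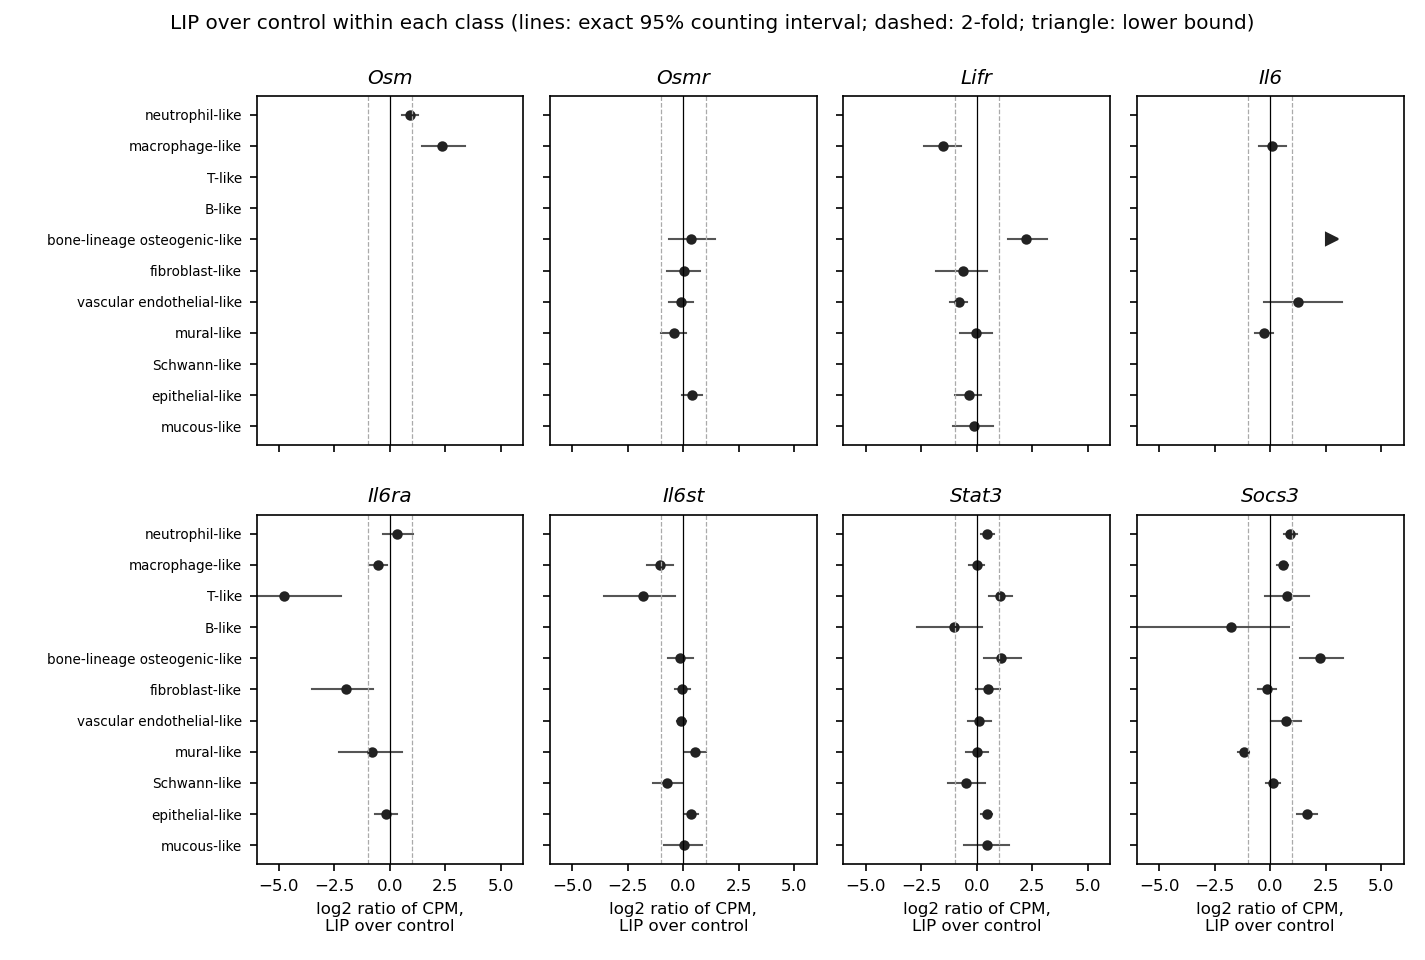
Log2 ratio of CPM, LIP over control, for 8 of the genes in each class with at least 20 UMIs over both libraries, with exact 95% counting intervals as lines, a triangle for a lower bound and dashed lines at 2-fold. Osmr stays between the dashed lines in all 5 classes shown, whereas Lifr and Socs3 in bone-lineage osteogenic-like cells stand at 2.23.

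Osm, the ligand of the OSM receptor, was read mainly in neutrophils in both conditions. Neutrophil-like cells held 415 Osm UMIs in 139 of 325 LIP cells and 79 UMIs in 34 of 56 control cells, or 256 CPM (232–282) and 136 CPM (108–169). Their share of all Osm UMIs was 71.9% (68.1–75.6) of 577 in the LIP library and 82.3% (73.2–89.3) of 96 in the control library. Epithelial-like cells, which served as the background class, had 2 and 5 Osm UMIs, in 1.63% of the LIP and 0.772% of the control cells at median depths of 24114 and 28637 UMIs.

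The pooled neutrophil level was higher in LIP by 0.91 on the log2 scale (0.56–1.28), but the neutrophils fell into 2 sub-clusters, and in the larger one the libraries did not differ beyond counting error. Acod1-led neutrophils, with the leading genes Acod1, Ccl3, Hcar2, Csf3r and Nlrp3, numbered 277 in LIP and 29 in control and had Osm at 355 CPM (319–394) and 410 CPM (306–540). Their log2 ratio was −0.21 (−0.64–0.25). Ngp-led neutrophils, with the granule protein genes Ngp, Camp and Ltf and with Chil3 and Wfdc21, numbered 48 and 27 and had Osm at 101 CPM (77.8–129) and 61.2 CPM (40.7–88.5), a log2 ratio of 0.72 (0.06–1.42). The Acod1-led cells stood above the Ngp-led cells by 1.81 on the log2 scale in LIP (1.43–2.22) and by 2.74 in control (2.05–3.46). When each neutrophil-like cell was given equal weight, the LIP over control ratio was 0.04 on the log2 scale, and after thinning each cell to 1000 UMIs Osm was found in 18.9% of 312 LIP and 26.8% of 56 control cells. The Ngp-led cells, 27 of the 56 control but 48 of the 325 LIP neutrophils, held more UMIs per cell, with a median of 14499 in control and 11206.5 in LIP, against 3741 and 3587 in the Acod1-led cells.

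In macrophage-like cells Osm was higher in LIP. Whether the mix of cells in this class differed between the libraries was not tested. LIP macrophages held 142 Osm UMIs in 38 of 83 cells, while control ones held 11 UMIs in 10 of 41, or 93.1 CPM (78.4–110) against 18.6 CPM (9.29–33.3), a log2 ratio of 2.32 (1.44–3.36). One LIP cell held 42 of the 142 UMIs, and without the cell with the most UMIs in each library (an alternative chosen after seeing the data) the ratio was 2.10. The macrophage level was below that of neutrophils in both libraries, by 1.46 on the log2 scale in LIP (1.18–1.74) and 2.87 in control (1.95–3.93). T-like cells had 5 Osm UMIs in 5 of 27 LIP cells and 1 in 51 control cells, too few to compare. The 10 Osm UMIs of the unnamed LIP sub-cluster lay in 4 of its 45 cells.

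**Figure D3:**
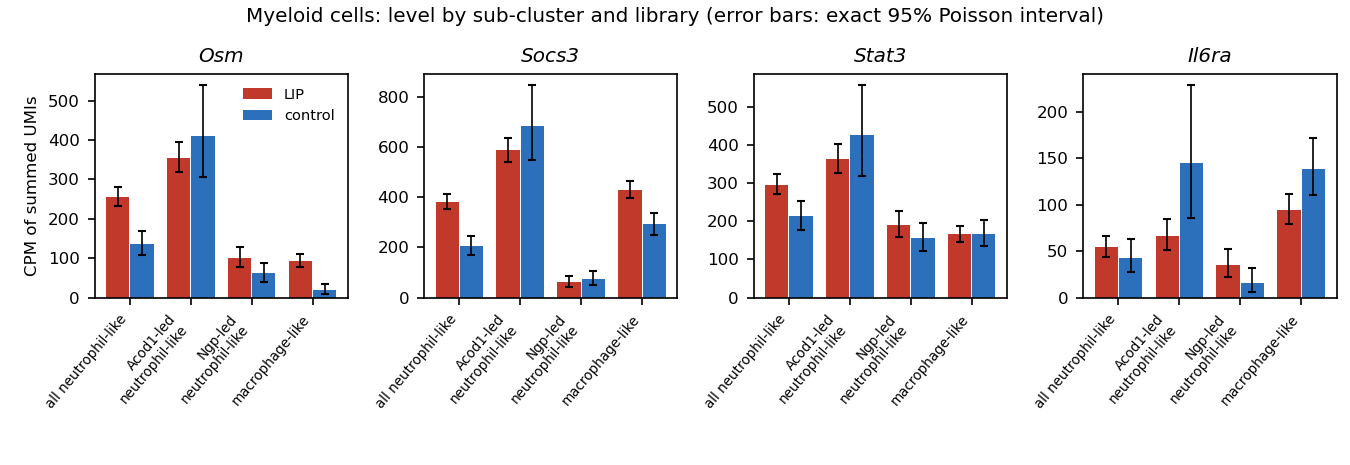
CPM of Osm, Socs3, Stat3 and Il6ra in all neutrophil-like cells, the Acod1-led and the Ngp-led neutrophils and macrophage-like cells, with LIP in red and control in blue and exact 95% Poisson intervals as error bars (bars start at 0). Over all neutrophils the LIP bar is taller for Osm (256 against 136 CPM), whereas in the Acod1-led cells it is not (355 against 410 CPM).

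Il6, the founding cytokine of the family, came from few cells with many UMIs each. In mural-like cells, the pericytes and smooth muscle cells of vessel walls, it was at 152 CPM (123–185) in LIP, with 97 UMIs in 13 of 45 cells, and at 186 CPM (153–224) in control, with 110 UMIs in 7 of 46 cells. Macrophage-like cells had 57.02 CPM in LIP, from 87 UMIs in 15 of 83 cells, and 54.1 CPM in control, from 32 UMIs in 5 of 41 cells. In neither class did the libraries differ beyond counting error (log2 ratios of −0.30, −0.71–0.11, and 0.07, −0.52–0.71). Neutrophil-like cells, by contrast, had 1 Il6 UMI in 325 LIP cells and none in 56 control cells.

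The mural level hid opposite values in its parts. Tagln-led cells, with the smooth muscle genes Tagln and Myh11, had Il6 at 219 CPM in LIP (73 UMIs in 7 of 22 cells) and 87.8 CPM in control (36 UMIs in 2 of 27 cells). Rgs5-led cells, with Rgs5, Vtn and Higd1b, had 78.3 CPM in LIP (24 UMIs in 6 of 23 cells) and 409 CPM in control (74 UMIs in 5 of 19 cells). The cell with the most UMIs held 33 and 24 of these UMIs in the Tagln-led cells and 8 and 39 in the Rgs5-led cells, so single cells carried much of each value. In bone-lineage osteogenic-like cells Il6 was at 78.4 CPM in LIP and 0 in control, at least 6.77-fold higher in LIP when the control sum is set to 3 counts. However, 62 of the 67 LIP UMIs lay in 1 of 31 cells and 5 in the rest, and at a mitochondrial limit of 5% the pair could not be compared. With 15 dimensions it could not be compared either, and Il6 in fibroblast-like cells was past 2-fold instead. Vascular endothelial-like cells had 24 Il6 UMIs in 7 of 79 LIP cells, 17 of them in 1 cell, and 4 UMIs in 1 of 48 control cells, and with equal weight per cell the log2 ratio was 0.53.

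**Figure D4:**
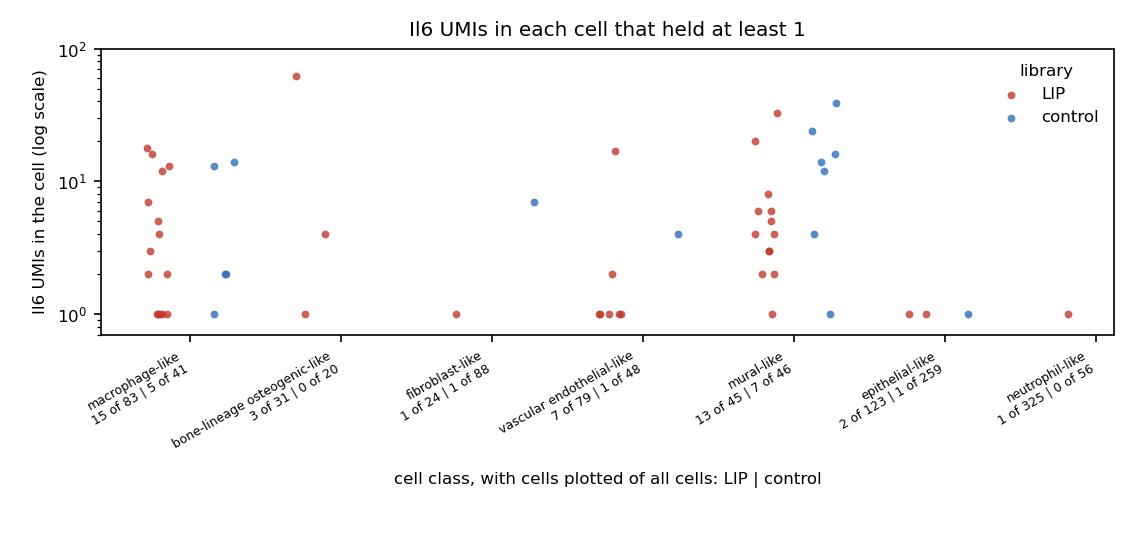
Il6 UMIs (log scale) in each cell that held at least 1, by class, with LIP in red, control in blue and the number of plotted cells of all cells under each class name. The bone-lineage osteogenic-like value rests on 1 cell with 62 UMIs, and mural-like cells hold up to 33 UMIs in LIP and 39 in control.

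Lif, which encodes leukemia inhibitory factor, and Il11 were scarce. Lif had 29 UMIs in all kept LIP cells and 17 in all kept control cells, and Il11 had 11 and 8. Of the LIP Lif UMIs, 3 of 31 bone-lineage osteogenic-like cells held 10 and 7 of 83 macrophage-like cells held 9, and the same classes held 0 and 1 in control. Of the control Lif UMIs, 10 lay in epithelial-like cells, in 10 of 259 cells. Il11 did not exceed 4 UMIs in any class and library, and no comparison was made.

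Osmr, the subunit that OSM mainly uses with gp130, was a gene of stroma, vessels and epithelium. Its level did not differ between libraries beyond counting error in any class that could be compared. In LIP it was at 121 CPM (98.9–146) in vascular endothelial-like, 75.0 (55.3–99.5) in mural-like, 53.8 (39.4–71.8) in bone-lineage osteogenic-like, 48.1 (30.8–71.6) in fibroblast-like and 20.5 CPM (15.7–26.3) in epithelial-like cells. In control the same classes had 130, 102, 42.4, 47.5 and 15.6 CPM. Some sub-clusters did differ, in opposite directions. Osmr was lower in LIP in the Rgs5-led mural-like cells, at 81.6 against 155 CPM (log2 −0.92, −1.76–−0.09). It was higher in the epithelial-like cells led by Top2a and Cenpf, at 27.0 against 14.5 CPM (0.90, 0.09–1.68). The other sub-clusters that could be compared did not differ beyond counting error. The endothelial level was above the mural one in LIP (log2 0.69, 0.18–1.21) but not beyond counting error in control (0.36, −0.23–0.94), and the osteogenic and fibroblast levels did not differ beyond it in either library. Both lay above the epithelial level in both libraries, by 1.23 to 1.61 on the log2 scale. In the 5 LIP and 19 control lymphatic endothelial-like cells Osmr stood at 179 and 166 CPM.

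Osteogenic and fibroblast cells together had Osmr at 51.7 CPM in LIP and 46.4 in control, a log2 ratio of 0.16 (−0.37–0.69), where 14.2% of all genes tested in the pooled class differed by over 2-fold. Osmr was found in 58.1% of the 31 LIP and 40% of the 20 control osteogenic cells at median depths of 25670 and 12931 UMIs. At 1000 UMIs per cell these were 1 of 31 and 2 of 20 cells. Myeloid and lymphoid cells were at background: 1 UMI in 325 LIP neutrophils (0.308% of cells, median depth 3855 UMIs) and no UMI in the 83 LIP and 41 control macrophages, which by the floor of 3 counts allows a share of cells with an Osmr UMI, not of cells expressing it, of up to 3.61% and 7.32%.

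Lifr, the subunit for LIF, had a different pattern, with its main difference in osteogenic cells. Bone-lineage osteogenic-like cells had 201 Lifr UMIs in 21 of 31 LIP cells and 13 UMIs in 5 of 20 control cells, or 235 CPM (204–270) and 50.1 CPM (26.7–85.7). The log2 ratio was 2.23 (1.42–3.16), and the cell with the most UMIs held 43 of the LIP UMIs. In LIP the osteogenic level was above that of fibroblast-like cells by 3.55 on the log2 scale (2.64–4.63), while in control those classes did not differ beyond counting error (0.69, −0.37–1.68). Vascular endothelial-like cells had a lower level in LIP, 158 against 278 CPM (−0.82, −1.21–−0.43), and so had macrophage-like cells, 16.4 against 47.4 CPM (−1.53, −2.37–−0.70). Mural-like cells had 59.4 and 60.9 CPM.

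Il6st, the shared subunit gp130, was highest among the compared classes in vascular endothelial-like cells, at 776 CPM (719–837) in LIP and 832 CPM (738–934) in control. Those led by Fabp4, Selp and Plvap had 949 and 992 CPM, and those led by Sema3g, Cldn5, Sox17, Gja4 and Gja5 had 184 and 177 CPM. The first stood above the second by 2.37 on the log2 scale in LIP (1.88–2.90) and by 2.49 in control (1.66–3.46), and the libraries did not differ beyond counting error in the first (log2 −0.06, −0.27–0.15). Fibroblast-like cells had 211 and 217 CPM and osteogenic cells 126 and 139 CPM. Il6st also differed within the Schwann-like cells, where those led by the myelin genes Pmp22 and Mbp had 29.3 CPM in LIP and 85.4 CPM in control and those led by Scn7a, Gfra3 and Cdh19 had 279 and 315 CPM. Neutrophil-like cells had 3 Il6st UMIs in 325 LIP cells and 2 in 56 control cells, at 1.85 and 3.44 CPM.

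Il6ra, the IL-6 receptor, was read in macrophage-like cells at 94.4 CPM (79.6–111) in LIP and 139 CPM (110–172) in control, and in neutrophil-like cells at 54.3 (43.5–66.8) and 43.0 CPM (27.8–63.5). Acod1-led neutrophils had a lower Il6ra level in LIP, 66.8 against 145 CPM from 66 and 18 UMIs (log2 −1.12, −1.89–−0.28). Ngp-led neutrophils stood the other way, at 34.7 against 15.3 CPM from 22 and 7 UMIs, with an interval that included no difference (1.18, −0.10–2.65). T-like cells had 38 Il6ra UMIs in 19 of 51 control cells and 1 UMI in 27 LIP cells, or 100 and 3.64 CPM (log2 −4.78, −10.13–−2.22). Il6st was also lower in LIP T-like cells, at 18.2 against 63.4 CPM, and neither T-like pair could be compared at a mitochondrial limit of 5%. In fibroblast-like cells Il6ra was at 12.0 CPM in LIP, from 6 UMIs, and at 47.5 CPM in control, from 46 UMIs (log2 −1.98, −3.50–−0.75).

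Counting subunits in the same cell gave the classes distinct combinations. Osmr and Il6st were found together in 18 of 31 LIP osteogenic cells (58.1%, 39.1–75.5) and in 8 of 20 control cells (40%, 19.1–63.9). In both libraries that is every osteogenic cell with Osmr. However, few LIP osteogenic cells lacked Il6st: 2 of 31 held Osmr or Lifr without it and 1 held none of the 3. Most subsets of these cells would therefore hold Il6st. Vascular endothelial-like cells had both in 50.6% of 79 LIP and 50% of 48 control cells, and mural-like cells in 46.7% of 45 and 30.4% of 46. Lifr and Il6st were found together in 61.3% of the LIP (42.2–78.2) and 20% of the control osteogenic cells (5.73–43.7). All 3 subunits were present in 35.5% of LIP osteogenic and 40.5% of LIP endothelial cells.

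Myeloid cells carried another set. Il6ra was found without Il6st in 67 of 325 LIP neutrophils (20.6%, 16.3–25.4) and 17 of 56 control neutrophils (30.4%), and together with it in 0 and 1 cells. Macrophage-like cells had both in 30.1% of LIP and 41.5% of control cells. Shares of cells follow depth, and at 1000 UMIs per cell Osmr with Il6st was left in 8 of 77 LIP and 5 of 44 control endothelial cells and in 1 of 31 and 1 of 20 osteogenic cells, too few to order. Lifr with Il6st was left in 2 of 31 LIP and 1 of 20 control osteogenic cells, also too few to order.

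**Figure D5:**
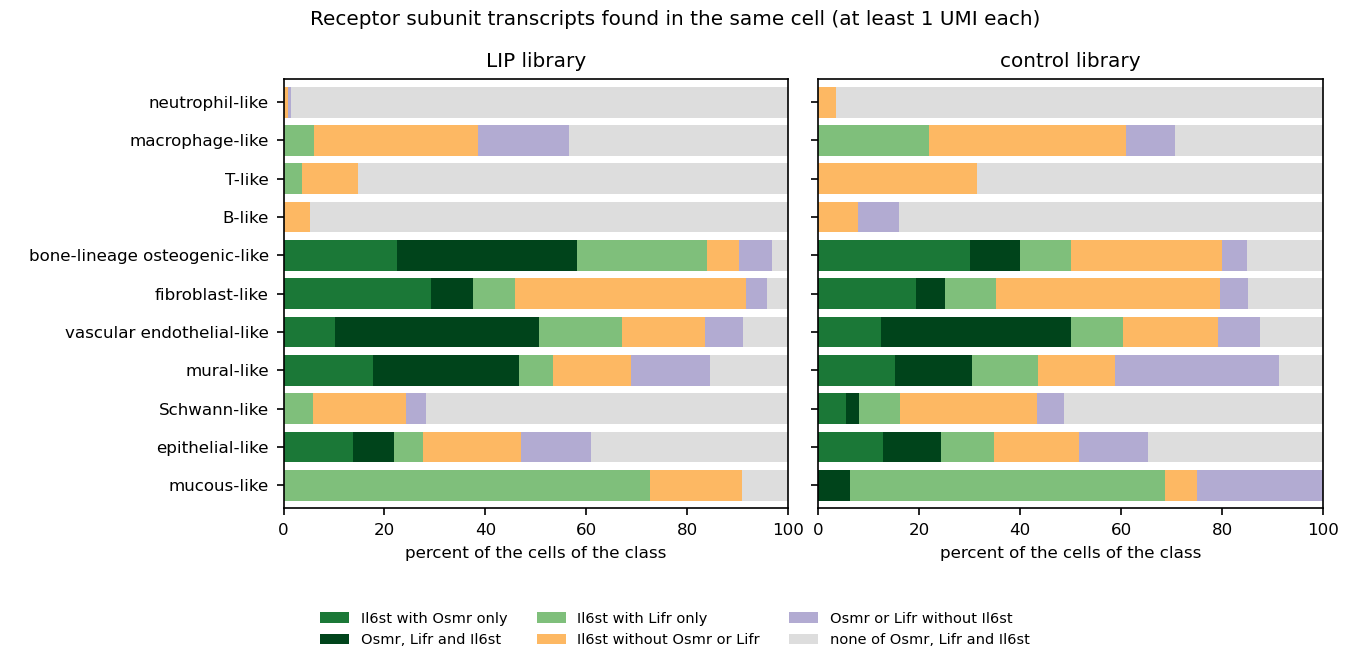
Percent of the cells of each class with each combination of Osmr, Lifr and Il6st transcripts (at least 1 UMI each, without thinning), LIP library left and control library right. Green shades, Il6st together with Osmr or Lifr, cover most osteogenic and endothelial cells of the LIP library, while 98.5% of LIP neutrophil-like cells have none of the 3.

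Stat3 was higher in LIP by over 2-fold in bone-lineage osteogenic-like cells, at 124 against 57.8 CPM (log2 1.10, 0.31–1.99), and in T-like cells, at 302 against 145 CPM (1.06, 0.55–1.58). Osteogenic Stat3 UMIs lay in 30 of 31 LIP and 8 of 20 control cells, at median depths of 25670 and 12931 UMIs. Macrophage-like cells had 166 and 167 CPM and mural-like cells 122 CPM in both libraries.

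Socs3, the feedback inhibitor that STAT3 induces, was more than 2-fold higher in LIP in osteogenic and epithelial cells and more than 2-fold lower in mural cells. Bone-lineage osteogenic-like cells had 170 UMIs in 24 of 31 LIP cells and 11 UMIs in 6 of 20 control cells, or 199 CPM (170–231) and 42.4 CPM (21.2–75.9), a log2 ratio of 2.23 (1.35–3.26). Fibroblast-like cells had 150 and 166 CPM, and osteogenic and fibroblast cells together 181 and 140 CPM (0.37, 0.08–0.66). Mural-like cells had 303 CPM in LIP and 692 CPM in control (−1.19, −1.44–−0.94). The log2 ratio was −0.93 with equal weight per cell and −0.05 after thinning to 1000 UMIs (18 LIP and 19 control UMIs). The Rgs5-led cells stood at 140 and 563 CPM and the Tagln-led cells at 453 and 749 CPM.

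Epithelial-like cells had 35.9 CPM in LIP and 11.4 CPM in control (1.65, 1.23–2.08). Among their sub-clusters the cells led by cell cycle genes such as Top2a and Cenpf had 51.9 and 15.4 CPM, those led by Krt13 and Krt4 had 20.3 and 6.56 CPM, and those led by Pappa and Fst had 17.8 and 15.03 CPM. In the 21 LIP and 10 control cells led by BC037156 and U90926 there were 26 and 1 UMIs, 14 of the 26 in 1 cell, at median depths of 3159 and 26299 UMIs. Vascular endothelial-like cells had 117 and 72.4 CPM (0.70, 0.05–1.39), and 28 of the 102 LIP UMIs lay in 1 cell. Without the cell with the most UMIs in each library the ratio was 0.43. In neutrophil-like cells the pooled Socs3 level was 382 in LIP and 205 CPM in control, but 587 and 684 CPM in the Acod1-led cells (−0.22, −0.55–0.13). Macrophage-like cells had 428 and 291 CPM (0.56, 0.31–0.81), higher in LIP beyond counting error but within 2-fold. Schwann-like cells had 665 and 609 CPM.

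Genes known to respond within minutes to stress or cell isolation also differed between the libraries, in the direction of Socs3 in some classes and not in others. Of 10 such genes chosen after seeing the data (Fos, Fosb, Jun, Egr1, Atf3, Ier2, Dusp1, Hspa1a, Hspa1b and Nr4a1), 9 of 10 tested were more than 2-fold lower in LIP mural-like cells (background 4.91%), with a summed level of 5356 against 17459 CPM. In osteogenic cells 7 of 8 were higher (background 8.01%, 2035 against 567 CPM) and in epithelial-like cells 5 of 10 (background 5.96%, 862 against 508 CPM). In neutrophil-like cells 6 of 9 were higher, where 12.9% of all genes were (4005 against 1506 CPM, and 5984 against 5004 CPM in the Acod1-led cells). In fibroblast-like cells 5 of 10 were lower (background 7.51%, 2703 against 5383 CPM). In vascular endothelial-like cells 3 of 10 were lower (background 5.42%) and 1 higher (background 8.04%), at 1502 against 2735 CPM. Socs3 did not differ beyond counting error in fibroblast-like cells and was higher in LIP in vascular endothelial-like cells (log2 0.70, 0.05–1.39). In macrophage-like cells 1 of 10 was lower (background 5.85%, 4520 against 5736 CPM), while Socs3 was higher (0.56, 0.31–0.81). In Schwann-like cells the summed level was 7536 against 11072 CPM, and Socs3 did not differ beyond counting error. The part of these genes in the Socs3 and Il6 values was not tested.

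The other genes of the pathway were read by lists of their roles. Of 12 genes known to respond to STAT3, 24 of 102 pairs of a gene and a class were more than 2-fold higher and 5 lower in LIP (median log2 0.21), where 7.57% and 6.77% of all pairs were. Timp1, an inhibitor of matrix metalloproteinases, was more than 2-fold higher in all 7 classes in which it could be compared, though in Schwann-like cells the interval included no difference (log2 1.20, −0.06–2.74). It stood at 1409 against 370 CPM in osteogenic cells (log2 1.93, 1.63–2.24), at 535 against 63.0 CPM in fibroblast-like cells (3.09, 2.68–3.51) and at 195 against 16.9 CPM in mural-like cells (3.53, 2.60–4.62). In macrophage-like cells it was at 358 CPM from 547 UMIs in LIP and at 1.69 CPM from 1 UMI in control (7.73, 5.24–13.03). Serpina3n, a protease inhibitor of the acute phase, was at 130 against 13.4 CPM in fibroblast-like cells (3.28, 2.41–4.26).

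Bcl3, a regulator of NF-kappaB targets, was higher in 5 of 9 classes and within 2-fold in the other 4. Junb was lower in fibroblast-like and mural-like cells and within 2-fold in the other 9 classes, and Mcl1 was within 2-fold in all 11. Neutrophil-like cells had 4 of 8 genes of the list higher (background 12.9%), Bcl6, Bcl3, Cebpb and Pim1, of which Cebpb stood at 3040 against 1264 CPM and Pim1 at 1436 against 597 CPM. Within each neutrophil sub-cluster all 4 were within 2-fold, with Cebpb at 4491 and 4136 CPM in the Acod1-led and 778 and 483 CPM in the Ngp-led cells. Epithelial-like cells had 5 of 12 higher (background 5.96%), among them Bcl3 at 17.8 against 2.89 CPM (2.62, 1.87–3.43).

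Among 7 feedback genes, 5 of 50 pairs were higher and 4 lower (18% past 2-fold), where 14.3% of pairs over all genes were past 2-fold in either direction. Socs1, a close relative of Socs3, was at 12.5 CPM in LIP and 102 CPM in control mural-like cells (log2 −3.02, −4.30–−1.95). Both inhibitors were thus lower there. In B-like cells Socs1 was at 195 CPM in LIP against 23.9 CPM in control. However, 9 of the 19 LIP but 7 of the 151 control B-like cells belonged to the sub-cluster led by Vpreb3, Cd79b and Ighm. The 2 values thus compare unlike mixes of cells. Among 7 kinases and STATs, 3 of 57 pairs were higher and 2 lower (8.77%), and Jak1, the kinase bound to gp130, was within 2-fold in all 11 classes. Among 7 other ligands, 2 of 14 pairs were higher and 2 lower (28.6%). Among them Il27 was higher in macrophage-like cells (34 against 2 UMIs) and Ctf1, the cardiotrophin gene, was lower in epithelial-like cells (8.06 against 17.2 CPM). Among 4 other receptors, 1 of 12 pairs was higher and 2 lower (25%). Cntfr was at 22.1 CPM in LIP and 121 CPM in control fibroblast-like cells (−2.45, −3.49–−1.56), and Il11ra1, the IL-11 receptor, was at 728 and 891 CPM there and within 2-fold in all 8 classes compared.

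Tnfsf11, which encodes RANKL, was added after seeing the data to place Osmr beside it. It had 18 UMIs in 6 of 31 LIP osteogenic cells, and all 6 also held Osmr, as did 18 of the 31 cells. In control it had 3 UMIs in 2 of 20 osteogenic cells, 1 of them with Osmr. Of the 24 LIP fibroblast-like cells, 9 held Osmr and 1 held Tnfsf11 (9 UMIs), with no cell holding both, and the 88 control fibroblast-like cells had no Tnfsf11 UMI. T-like cells had 28 Tnfsf11 UMIs in 8 of 27 LIP cells and 14 UMIs in 10 of 51 control cells, with no Osmr UMI in any. Such small counts give no order between libraries.

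The genes whose level over the classes was most like that of Osm were the chemokine receptor Ccr1 (Pearson r 0.973), the pattern receptor Clec4e (0.971), Gm49339 (0.970), the lactate transporter Slc16a3 (0.970) and Lilrb4a (0.969). For Osmr they were Pls3 (0.954), Rbfox2 (0.948), Ehd2 (0.943), Tns2 (0.939) and Tril (0.939). Each r was taken over 18 points, 9 classes in both libraries, among 13123 genes, and is a description only, since the points share 2 libraries and the classes themselves.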

How the data were processed

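The authors digested periodontal tissue, made 1 library per condition with the 10x Genomics 3′ v3 kit and used Cell Ranger (3.1.0 in the matrix header) with the mm10 genome. The deposited matrices hold counts of UMIs for each gene in each barcode, not normalized. Both matrices were used here. Results for some genes are not reported here. The 10 members, the pathway lists and the markers were chosen with earlier results of these data known.

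Barcodes with 200 to 7500 genes, at most 60000 UMIs and at most 10% mitochondrial UMIs were kept (936 of 1212 LIP and 883 of 1169 control barcodes). Counts were log-normalized per 10000 UMIs, genes found in fewer than 3 cells were left out of the clustering, and the libraries were integrated with Seurat 5.3.0 in R 4.3.3 over 2000 variable features without the members and pathway genes, with 30 dimensions at a resolution of 0.1, then 0.2 within each cluster. A sub-cluster was named from marker lists of 21 cell types when at least 3 markers were found in 25% of its cells and at 2-fold. Scrublet, run with scanpy 1.11.5, marked 1 LIP and 4 control barcodes, under 0.5% of the cells, so it cannot be taken to have worked. They were kept.

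Counts were summed per class and library with Python 3.11.15, numpy 2.4.6, scipy 1.17.1 and pandas 2.3.3, and plots were drawn with matplotlib 3.10.9. The kept cells held 10560109 LIP and 13407122 control UMIs. A pair of a gene and a class was compared with at least 20 UMIs over both libraries and at least 10 cells in each, with an exact conditional binomial 95% interval on the log2 ratio and a floor of 3 counts for a sum of 0. Shares of cells have exact (Clopper-Pearson) intervals. Steps were tested on simulated data. Named genes are the members, up to 4 genes a list and class with the largest ratio, the 5 genes most like Osm and Osmr (at least 50 UMIs, log2(CPM + 10), classes of at least 20 cells) and the leading genes of sub-clusters. Mcl1, Jak1, Junb and Il11ra1 were named for their counts over classes, and the early response genes and Tnfsf11, after their values were seen. Alternatives were a resolution of 0.3, 15 dimensions, members kept among the variable features, a mitochondrial limit of 5%, removal of Scrublet doublets, equal weight per cell, thinning to 1000 UMIs, minimums of 10 and 50 UMIs and, chosen after seeing the data, leaving out the cell with the most UMIs.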

Additional observations from a re-analysis of the deposited data

How the results depend on the processing

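Of 64 recomputed values, 50 kept their direction and stayed within the counting interval or within 1.5 times the count, 12 moved further and 2 reversed, a reversal being a change of sign of a difference that had been beyond counting error. A resolution of 0.3, members kept among the variable features and removal of Scrublet doublets moved none of them beyond that. Both reversals came with thinning to 1000 UMIs, where Osm in neutrophil-like cells was −0.21 and Socs3 in vascular endothelial-like cells −0.070, on the log2 scale of LIP over control. The intervals of both thinned values included no difference (−0.88–0.52 for Osm and −2.43–2.62 for Socs3). Thinning also changed the sign of Osmr in osteogenic and fibroblast cells together, which had not differed beyond counting error, to −1.04. It gave 1.47 for Socs3 in them, a lower bound of 0.17 for Osm in macrophage-like cells, where no control UMI was left, 1.98 for Osm in LIP neutrophils over macrophages, a neutrophil share of LIP Osm UMIs of 93.8% and 2 of 16 comparable pairs past 2-fold, Socs3 in fibroblast-like and Stat3 in macrophage-like cells, neither among the main 16 of 54. Of those 16, 15 could not be compared after thinning, and the other, Socs3 in mural-like cells, stood at −0.05 (18 LIP and 19 control UMIs). Equal weight per cell gave 0.036 for Osm in neutrophil-like cells, 1.87 for neutrophils over macrophages and a share of 82.6%. Neutrophils over macrophages came to 0.93 with 15 dimensions and 1.89 without the cell with the most UMIs, and a mitochondrial limit of 5% left 10 of 39 pairs past 2-fold. The cause of these was not tested.

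At that limit Il6ra and Il6st in T-like, Il6 in osteogenic, Socs3 in mural-like and Stat3 and Socs3 in B-like cells could not be compared, Il6st in macrophage-like cells was at −0.99 and Il6st in Schwann-like cells passed 2-fold. Stat3 in B-like cells was also within 2-fold with 15 dimensions and with members kept among the variable features. Minimums of 10 and 50 UMIs gave 18 and 12 pairs. No paired analysis was possible because each condition had 1 library and no result came from a test. No difference between mice could be measured, a level near 1 UMI per class has no order, and CPM of 1 class depend on the other transcripts of its cells.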
